A study of Mus musculus with 2 samples.

Results

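Growth hormone responsive liver genes were followed in isolated mouse hepatocytes before and after partial hepatectomy (PHx), the surgical removal of most of the organ. The set held 10 of the 27998 genes listed in the count tables, chosen by name: the targets Elovl3, Hsd3b5, Cyp4a12a, Cyp4a12b, Selenbp2 and Cyp2d9, the feedback inhibitor Socs2, the transcription factors Stat5a and Stat5b, and the repressor Bcl6. The names were picked with earlier results of these data in view, so the differences between libraries below are descriptions and carry no test. Hepatocytes were released by collagenase perfusion from mice on a normal diet, labelled as C57BL/6 and 10 to 12 weeks old. The methods of the work describe male C57BL/6J mice and a somewhat younger age at surgery. One group was undamaged liver (0 h) and the other was liver 48 h after PHx (PHx48h), each with 1 library from 1 mouse, so animal, library and time cannot be told apart. Single-cell RNA-Seq (scRNA-Seq) tags every captured transcript with a droplet barcode and a unique molecular identifier (UMI), so each molecule is counted once.

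Pulses of growth hormone from the pituitary reach the hepatocyte through the growth hormone receptor and its kinase JAK2, which phosphorylates STAT5. Activated STAT5 enters the nucleus and switches on target genes, among them Igf1 and the SOCS family inhibitors that damp the signal. Males secrete growth hormone in more separated pulses than females, and STAT5, with BCL6 as a repressor that competes for its sites, underlies much of the difference in liver gene expression between the sexes. The 6 targets chosen here are genes known to be higher in male than in female mouse liver.

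Each gene was measured in 2 sets of barcodes per library, those with over 30% of their UMIs from mitochondrial (mt) genes and those with under 2%. Levels are given as counts per 1e6 non-mitochondrial UMIs (CPM), summed over the barcodes of a set, with exact 95% intervals that cover counting error only. Over 30% mt were 3870 of 59202 barcodes at 0 h (6.54%) and 765 of 1586 at 48 h (48.2%), with 5778391 and 5103719 non-mt UMIs. Under 2% mt were 52587 barcodes at 0 h (88.8%) and 522 at 48 h (32.9%), with 78751891 and 3135996 non-mt UMIs. The median non-mt depth of a barcode was 1214 and 4411 UMIs over 30% mt, and 1413 and 5272 UMIs under 2% mt. Under 2% mt at 0 h the depth ran only from 1162 to 6447 UMIs, there were far more barcodes than the hepatocytes the study analysed, and the 10 genes varied together between barcodes by no more than 0.011 in size (Pearson's r). Under 2% mt at 48 h the depth ran from 4506 to 26225 UMIs, with its median of 5272 near the minimum. Whether barcodes under 2% mt hold hepatocytes was not tested at either time. Every ratio under 2% mt therefore compares pools of barcodes with that mt share. All 10 listed hepatocyte markers were detected in all 4 sets, at 13.3% and 12.5% of non-mt UMIs over 30% mt and at 11.5% and 8.17% under 2% mt. The marker lists of macrophages, endothelial and stromal cells summed to between 17.5 and 61.5 CPM, except the stromal list under 2% mt, which was at 23.9 CPM at 0 h and 156 CPM at 48 h. Erythroid markers were at 54 and 27.4 CPM over 30% mt and at 234 and 27.7 CPM under 2% mt, and the listed T or NK and B cell markers were at 0 in both PHx48h sets. Markers of proliferation, 20 genes, summed to 39.6 CPM at 0 h and 933 CPM at 48 h over 30% mt, and to 50.2 and 1183 CPM under 2% mt. The libraries shared 148 barcode sequences.

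STAT5 dimers recognise the letters TTCNNNGAA, which read the same on both strands, so windows of 250 bases before to 50 after annotated starts (RefSeq, GRCm38.p6) were searched for them. The windows held 6 of the 10 genes, namely Hsd3b5, Selenbp2, Cyp2d9, Stat5a, Stat5b and Bcl6, and only those of Bcl6 had a match among the 6. Of all 32851 windows, 8.3% had one, and counted by gene it was 9.55% of 27025. The parts before the 2 Bcl6 starts are shown because Bcl6, a known STAT5 target as well as its competitor, was the one with matches. Both read 5′ to 3′ on the minus strand, with each match in capitals:
Bcl6 start in the gene body, chr16:23981284-23981533: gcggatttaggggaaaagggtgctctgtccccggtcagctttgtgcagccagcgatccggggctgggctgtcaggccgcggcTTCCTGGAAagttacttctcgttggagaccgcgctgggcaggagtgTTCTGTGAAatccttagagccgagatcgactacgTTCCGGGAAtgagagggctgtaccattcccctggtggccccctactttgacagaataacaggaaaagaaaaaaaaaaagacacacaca
Bcl6 outer start, chr16:23988853-23989102: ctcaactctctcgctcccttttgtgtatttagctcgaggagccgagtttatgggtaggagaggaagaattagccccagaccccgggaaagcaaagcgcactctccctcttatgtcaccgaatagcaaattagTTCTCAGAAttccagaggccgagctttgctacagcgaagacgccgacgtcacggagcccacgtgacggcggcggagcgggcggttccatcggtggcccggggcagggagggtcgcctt
The window at the start in the gene body held 3 matches and the outer one held 1. Cish, a STAT5 feedback gene of the same pathway, had 2 matches just after its start, TTCCTGGAA and TTCTTGGAA. Of the other listed pathway and male-biased genes described further on, Igfals and Keg1 had 2 matches each and Socs3 and Moxd1 had 1 each. A match is a string of letters in these windows and says nothing of occupancy.

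In barcodes over 30% mt, 6 of the 10 genes were at least 2-fold lower at 48 h, and none was at least 2-fold higher. Among the 10088 genes compared, those with a mean of at least 2 CPM over both libraries, 5.59% were at least 2-fold lower and 31.9% at least 2-fold higher. At least 4-fold lower were 4 of the 10, against 1.09% of all genes, and at least 16-fold lower were 2, against 0.0991%. In barcodes under 2% mt, 8 of the 10 were at least 2-fold lower, against 19.9% of 9460 genes, and none was at least 2-fold higher, against 24.5%. At least 4-fold lower there were 6, against 5.53%, and at least 16-fold lower 4, against 0.37%. Bcl6 is in each of these counts under 2% mt, although it had only 1 UMI at 48 h there. It passed the filter on low values only through its 0 h level of 7.19 CPM. With a mean of at least 10 CPM required, 7 genes were at least 2-fold lower under 2% mt. The median log2 ratio of the 10 genes, 48 h over 0 h, was -1.30 over 30% mt and -2.49 under 2% mt, while that of all genes was 0.56 and 0.07. Scaling by TMM, which sets the typical gene near no difference, moved the median of all genes over 30% mt to 0.00 and the split to 14.3% lower and 15.5% higher, with the same number of 6 members lower. All 10 passed the filter on low values in both sets. Because the choice of genes drew on these same libraries, nothing further is read from these counts.

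**Figure D1:**
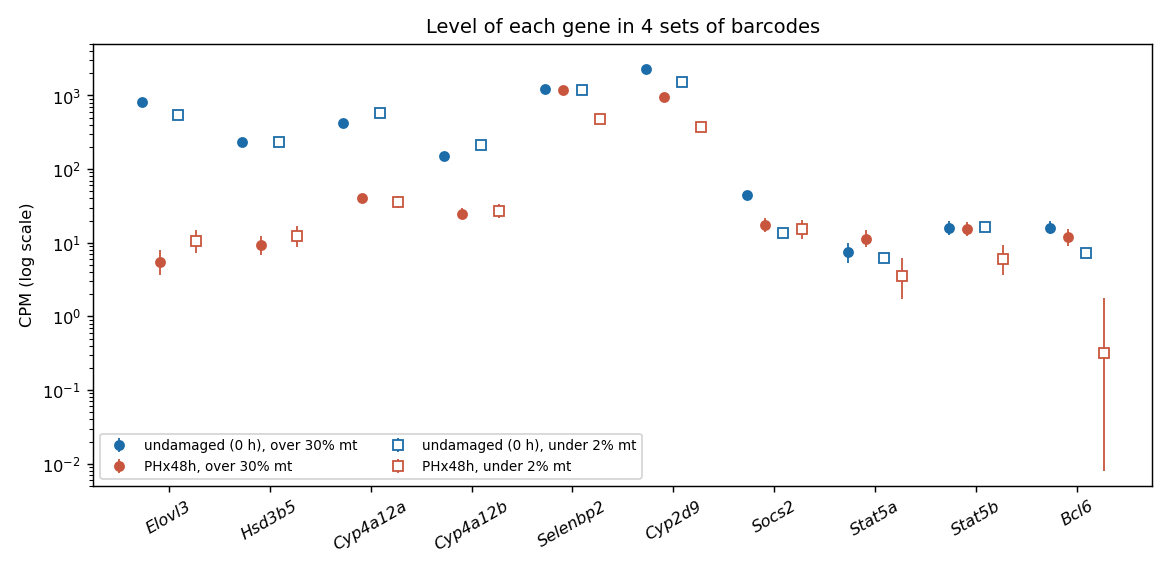
Level of each gene on a log axis, as CPM, in the undamaged (blue) and PHx48h (red) libraries, for barcodes over 30% mt (filled circles) and under 2% mt (open squares). Bars are exact 95% counting intervals. Elovl3, Hsd3b5, Cyp4a12a and Cyp4a12b are apart between libraries in both sets, and Selenbp2 over 30% mt is nearly level at 1231 and 1185 CPM.

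Elovl3, which elongates very long chain fatty acids, had the largest difference of the 10. Over 30% mt it stood at 821 CPM at 0 h (4744 UMIs) and 5.49 CPM at 48 h (28 UMIs), a 150-fold difference with an interval of 103 to 225. It ranked 1 of 10088 genes from the lowest log2 ratio. Under 2% mt it stood at 546 CPM and 10.5 CPM (33 UMIs), which was 51.9-fold lower (37 to 75.5). The gene lies at chr19:46131897-46135694 on the plus strand (GRCm38, as are all gene positions here). No window of its last 500 transcript bases, tested 100 bases at a time, recurred in another gene.

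Hsd3b5, a male-specific steroid dehydrogenase, was at chr3:98618634-98630252 on the minus strand. Its level over 30% mt was 231 CPM at 0 h and 9.21 CPM at 48 h (1332 and 47 UMIs), a 25-fold difference (18.7 to 34.2) and rank 4 of the 10088. Under 2% mt the levels were 235 and 12.4 CPM, an 18.9-fold difference (13.8 to 26.6). The intervals of the 2 sets overlapped, and the 0 h levels of the sets were within their counting error of each other.

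Cyp4a12a and Cyp4a12b, neighbouring cytochrome P450 genes for fatty acid hydroxylation on chromosome 4, were lower at 48 h in both sets. Cyp4a12a (chr4:115299046-115332815, plus strand) was at 421 and 40.4 CPM over 30% mt, 10.4-fold lower (9.03 to 12.1), and at 579.8 and 36 CPM under 2% mt, 16.1-fold lower (13.4 to 19.5). Cyp4a12b (chr4:115411624-115439034, plus strand, 78808 bases further on) was at 152 and 24.9 CPM over 30% mt, 6.12-fold lower (5.08 to 7.43). Under 2% mt its levels were 215 and 27.1 CPM, 7.93-fold lower (6.41 to 9.93). The pair shared 28.4% of the 100-base windows at their transcript ends, so the split of reads between them is uncertain.

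Cyp2d9, a P450 that hydroxylates testosterone in male liver, lies at chr15:82433437-82456845 on the plus strand. It was at 2286 CPM at 0 h and 951 CPM at 48 h over 30% mt, 2.4-fold lower (2.33 to 2.48), with 4854 UMIs still counted at 48 h. Under 2% mt it was at 1507 and 376 CPM, 4.01-fold lower (3.78 to 4.25). Of its end windows 12.7% recurred in related Cyp2d genes.

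Selenbp2, a selenium binding protein of unsettled function in liver (chr3:94693556-94704413, plus strand), was at least 2-fold lower in only 1 of the 2 sets, unlike the other 5 targets. Over 30% mt it was nearly level, at 1231 CPM at 0 h and 1185 CPM at 48 h (7111 and 6050 UMIs), a log2 ratio of -0.05 (-0.10 to -0.00). This was -0.61 with TMM scaling. Under 2% mt Selenbp2 was at 1200.3 and 475 CPM, 2.53-fold lower (2.4 to 2.66). The gene shared 23.5% of its end windows with Selenbp1. The 6 targets summed to 5141 and 2216 CPM over 30% mt, 2.32-fold lower (2.27 to 2.37), and to 4284 and 938 CPM under 2% mt, 4.57-fold lower (4.41 to 4.74). Markers of hepatocytes near the central vein, 10 perivenous genes, moved alongside, at 7827 and 3305 CPM over 30% mt and at 13215 and 4478 CPM under 2% mt. The 10 periportal markers, which include Alb and Cps1 of the hepatocyte list, were at 51317 and 59885 CPM over 30% mt. Under 2% mt they were at 57096 and 27605 CPM. The part of zonal makeup in the targets' differences was not tested.

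**Figure D2:**
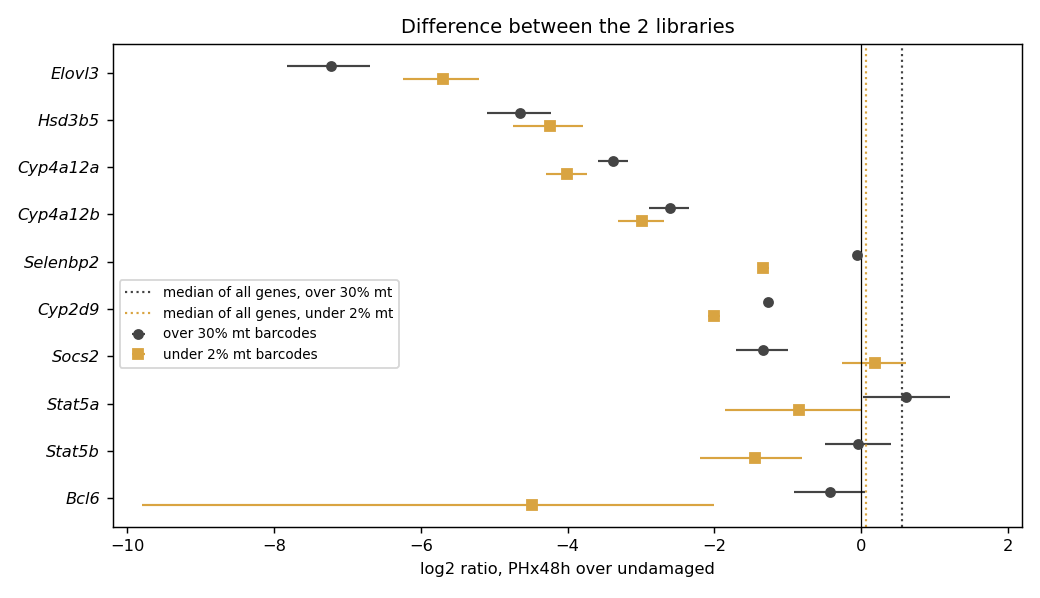
Log2 ratio of each gene, PHx48h over undamaged, in barcodes over 30% mt (grey circles) and under 2% mt (yellow squares), with 95% counting intervals. Dotted lines mark the median of all genes in each set, 0.56 and 0.07. Elovl3 lies furthest to the left over 30% mt at -7.23, and Socs2, Stat5a, Stat5b and Bcl6 differ in ratio between the sets.

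The genes of the pathway itself had lower counts and smaller or less certain differences. Socs2, which STAT5 induces and which restrains growth hormone signalling, was at 44.1 CPM at 0 h and 17.4 CPM at 48 h over 30% mt (255 and 89 UMIs), 2.53-fold lower (1.98 to 3.26). Under 2% mt it was at 13.4 and 15.3 CPM, a log2 ratio of 0.19 whose interval, -0.26 to 0.61, included 0. At 0 h it was 1.72 log2 units higher over 30% mt than under 2% mt (1.52 to 1.92), and at 48 h 0.19 higher (-0.33 to 0.73). Socs2 lies at chr10:95385362-95417180 on the minus strand, and 16.4% of its end windows recurred in Gm9847.

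Stat5a and Stat5b lie side by side on chromosome 11, at chr11:100859351-100885169 (plus strand) and chr11:100780731-100850724 (minus strand), with 8626 bases between them. Stat5b, the main liver form, was at 15.9 CPM at 0 h and 15.5 CPM at 48 h over 30% mt (92 and 79 UMIs), a log2 ratio of -0.04 (-0.49 to 0.41). Under 2% mt it was at 16.5 and 6.06 CPM (1303 and 19 UMIs), 2.73-fold lower (1.74 to 4.55), while in barcodes under 5% mt the log2 ratio was -0.98, short of 2-fold. Stat5a was at 7.44 and 11.4 CPM over 30% mt (43 and 58 UMIs), a log2 ratio of 0.61 (0.02 to 1.21) that was 0.05 with TMM scaling and -0.26 in barcodes over 50% mt. Under 2% mt it was at 6.3 and 3.51 CPM (496 and 11 UMIs), with an interval of -1.86 to 0.01 on the log2 scale.

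Bcl6 (chr16:23965052-23988852, minus strand), the repressor named above, was at 16.1 and 12 CPM over 30% mt (93 and 61 UMIs), a log2 ratio of -0.43 (-0.92 to 0.05). Under 2% mt it was at 7.19 CPM at 0 h (566 UMIs) and 0.319 CPM at 48 h, where 1 UMI was counted. That gave a log2 ratio of -4.49 with an interval of -9.80 to -2.01. In barcodes under 5% mt the log2 ratio was -2.16.

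Within each library the sets of barcodes differed as well. At 0 h, Socs2 and Bcl6 (log2 1.16, 0.83 to 1.48) were at least 2-fold higher over 30% mt than under 2% mt, as were 15% of the 9377 genes compared. At 48 h, Selenbp2 (1.32, 1.24 to 1.40), Cyp2d9 (1.34, 1.25 to 1.43), Stat5a (1.70, 0.75 to 2.78), Stat5b (1.35, 0.62 to 2.16) and Bcl6 (5.23, 2.70 to 10.55) were, against 36.7% of 10026 genes. None of the 10 was at least 2-fold lower over 30% mt in either library, against 9.1% of genes at 0 h and 6.67% at 48 h. Elovl3 went the other way at 48 h, at -0.94 (-1.72 to -0.17), and Hsd3b5, Cyp4a12a and Cyp4a12b had intervals that included 0.

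Finer classes of mt share showed the same split among the targets. In the PHx48h library, Selenbp2 was at 475 CPM in barcodes under 2% mt, 241 CPM from 2 to 10%, 655 CPM from 10 to 30%, 999 CPM from 30 to 50% and 1345 CPM over 50%. Cyp2d9 was at 376, 303, 664, 858 and 1031 CPM in the same classes. Elovl3 stayed between 5.1 and 10.5 CPM in all 5. In the undamaged library, Selenbp2 ranged from 999 to 1374 CPM. Cyp2d9 was at 1507, 1295, 1949, 2265 and 2353 CPM in the same classes there. Elovl3 was at 546, 449, 835, 807 and 863 CPM, so both were highest over 50% mt at 0 h. Nonparenchymal-marked barcodes, those in which markers of other liver cells reached 1% of non-mt UMIs with at least 5 UMIs, made up 56 of 156 barcodes in the PHx48h class from 2 to 10% and 288 of 2045 in the undamaged one. Their part in the low levels of that class was not tested.

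**Figure D3:**
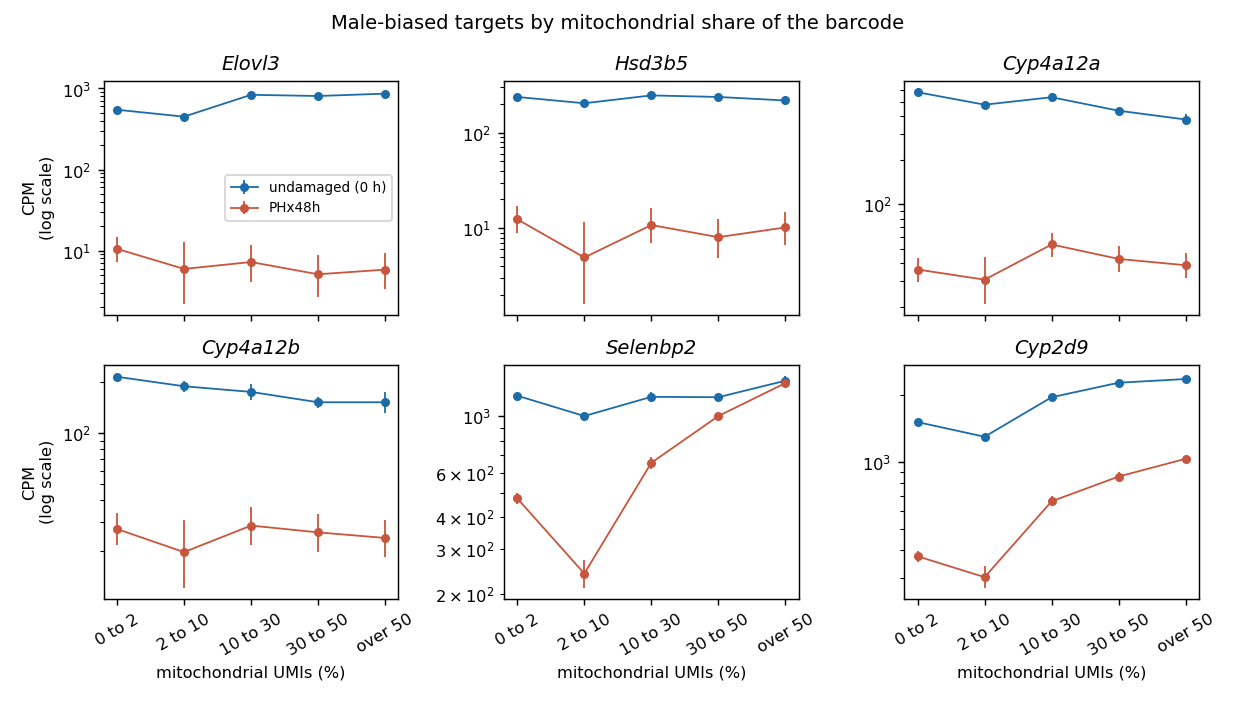
Level of each of the 6 targets on a log axis against the mt share of the barcode, in 5 classes, for the undamaged (blue) and PHx48h (red) libraries, with 95% counting intervals. For Selenbp2 the libraries meet over 50% mt, at 1374 and 1345 CPM. For Elovl3, Hsd3b5, Cyp4a12a and Cyp4a12b they stay apart in all classes.

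The spread between barcodes was described after thinning each barcode to 1000 non-mt UMIs, which left out 1399 undamaged and 4 PHx48h barcodes over 30% mt and none under 2% mt. Over 30% mt, at least 1 Elovl3 UMI remained in 52.9% of 2471 barcodes at 0 h (95% Clopper-Pearson interval 50.9 to 54.9%), with up to 7 per barcode, and in 1.18% of 761 at 48 h (0.542 to 2.23%), with 1 at most. Without thinning the shares were 62.4% and 3.27%. Hsd3b5 was seen in 20.1% and 1.45% of thinned barcodes, Cyp4a12a in 33.6% and 3.29%, and Cyp4a12b in 14% and 2.5%. Cyp2d9 was seen in 88.7% and 55.8%, and its median went from 2 UMIs to 1. Selenbp2 was seen in 65.7% (63.8 to 67.6%) and 62.7% (59.1 to 66.1%), with a median of 1 UMI in both. At 48 h no thinned barcode over 30% mt held more than 1 UMI of Elovl3, Hsd3b5 or Cyp4a12b or more than 2 of Cyp4a12a, while Selenbp2 reached 8. Under 2% mt the shares at 0 h and 48 h were 41.9% and 1.34% for Elovl3 and 20.7% and 1.72% for Hsd3b5. Cyp4a12a was seen there in 43.6% and 3.64%, and Cyp4a12b in 18.9% and 3.26%. For Selenbp2 the shares under 2% mt were 69.1% and 31.6%, and for Cyp2d9 77.2% and 31.4%.

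Free RNA can put a hepatocyte transcript into any droplet, so the same shares were taken in nonparenchymal-marked barcodes, 349 at 0 h and 64 at 48 h after thinning. Their median depths before thinning were 2832 and 6083 non-mt UMIs, against 1563 and 4428 for the thinned barcodes over 30% mt. At 0 h they showed Elovl3 in 24.1%, Hsd3b5 in 14.9%, Cyp4a12a in 26.9%, Cyp4a12b in 10.6%, Selenbp2 in 53.9% and Cyp2d9 in 53.6%. All were below the shares over 30% mt, but for Hsd3b5, Cyp4a12a and Cyp4a12b the intervals of the marked barcodes reached those over 30% mt. For Hsd3b5 they were 11.3 to 19.1% against 18.5 to 21.7% over 30% mt. For Cyp4a12a they were 22.3 to 31.9% against 31.7 to 35.5%, and for Cyp4a12b 7.58 to 14.3% against 12.6 to 15.4%. At 48 h they showed Selenbp2 in 15.6% and Cyp2d9 in 10.9%, both below the 62.7% and 55.8% over 30% mt. Elovl3, Hsd3b5, Cyp4a12a and Cyp4a12b were seen in 0 of 64, with a Clopper-Pearson upper limit of 5.6%. Their 48 h shares over 30% mt could therefore not be told from this background. Without thinning these 4 genes were seen in 0, 1, 8 and 3 of the 64, in that order. Socs2, Stat5a, Stat5b and Bcl6 were each seen in under 5% of thinned barcodes in every set, and other liver cells may express them, so no per-cell difference was read for them.

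The squared coefficient of variation beyond counting gives the spread of a gene's share of UMIs between barcodes after the counting part is taken out. The figure after ± is the SE that counting alone would give if all barcodes had an equal level. It is not the uncertainty of the value itself, which was not estimated. At 0 h over 30% mt it was 0.24 ± 0.017 for Elovl3, 0.28 ± 0.13 for Cyp4a12b, 0.13 ± 0.036 for Cyp4a12a, 0.10 ± 0.011 for Selenbp2, 0.03 ± 0.0057 for Cyp2d9 and 0.02 ± 0.075 for Hsd3b5. At 48 h it was 0.36 ± 0.0049 for Selenbp2, 0.11 ± 0.0062 for Cyp2d9, 0.74 ± 0.2 for Cyp4a12a and 0.45 ± 0.38 for Cyp4a12b. With 1 library per time these are values of 2 libraries, and no test of a difference between times is possible. Without the 1% of barcodes with the most UMIs of the gene, a step that lowers the value by its construction, Selenbp2 was at 0.07 and 0.30 and Cyp2d9 at 0.03 and 0.11 at 0 h and 48 h. Cyp4a12a was then at -0.03 and 0.14 and Cyp4a12b at -0.02 and -0.21. Because the step lowers any value, it cannot show whether their spread rested on that 1%. Elovl3 and Hsd3b5 had too few UMIs at 48 h for this value. Under 2% mt at 0 h the values were 0.02 for Elovl3, 0.04 for Selenbp2, 0.06 for Cyp4a12a, 0.13 for Cyp4a12b, 0.03 for Cyp2d9 and 0.17 ± 0.026 for Hsd3b5. Under 2% mt at 48 h Selenbp2 stood at 0.24 ± 0.022 and Cyp2d9 at 0.11 ± 0.028. Correlations between the genes' shares across single barcodes were weak. At 0 h over 30% mt none of the pairs computed exceeded 0.096 in size (3870 barcodes), and at 48 h the highest were 0.223 for Selenbp2 with Cyp2d9 and 0.118 for Cyp4a12a with Cyp4a12b (765 barcodes of 1 library with varying depth and mt share).

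**Figure D4:**
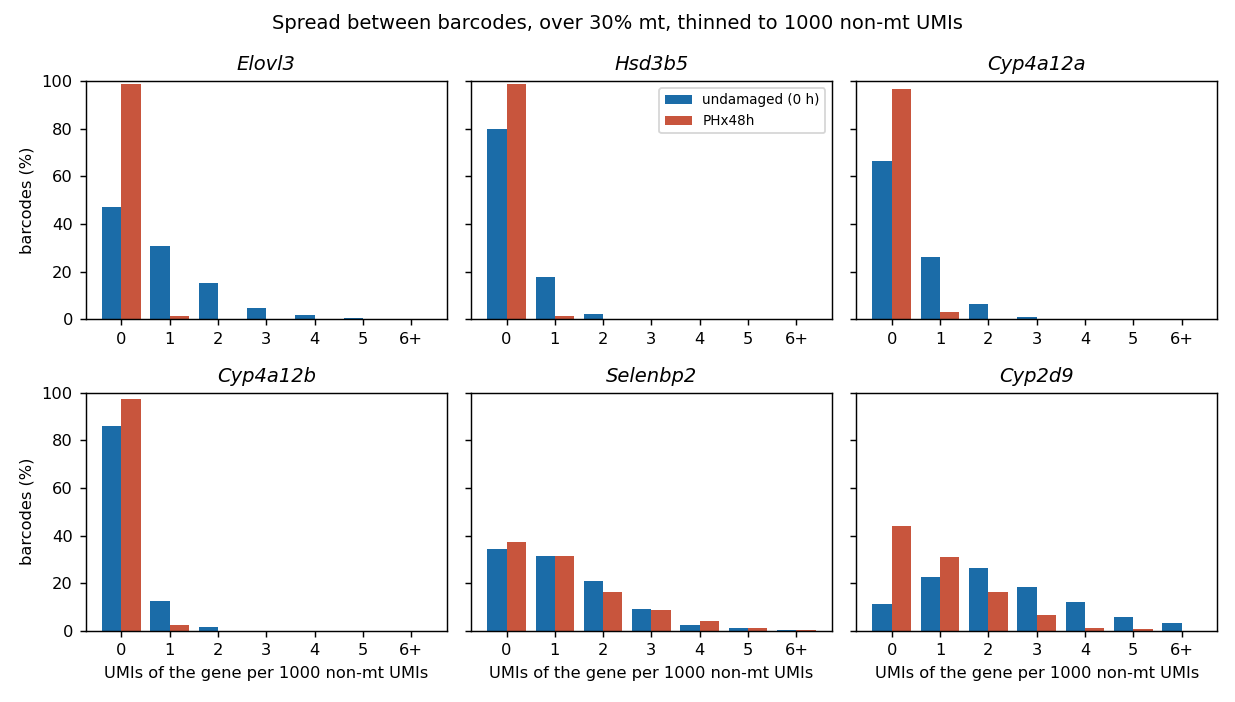
Percentage of barcodes over 30% mt with 0 to 5 or at least 6 UMIs of each target, after thinning to 1000 non-mt UMIs, for 2471 undamaged (blue) and 761 PHx48h (red) barcodes. Elovl3 loses its upper counts at 48 h, Cyp2d9 shifts down and Selenbp2 keeps a similar range, with 62.7% of barcodes still above 0.

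Liver lobules are zoned, and hepatocytes near the central (perivenous) and portal veins use different genes. Barcodes over 30% mt with at least 20 UMIs from 10 perivenous and 10 periportal marker genes were split into 3 nearly equal parts by the perivenous share of those UMIs. The periportal list includes Alb and Cps1, also listed as hepatocyte markers, and the study places albumin protein outside the periportal zone. The weight of Alb in the share was not measured, so the parts are not read as positions in the lobule. At 0 h Elovl3 was at 598, 648 and 1268 CPM from the lowest to the highest part, and Cyp4a12b at 105, 119 and 247 CPM. Socs2 followed the same order, at 27.6, 40.9 and 64.9 CPM, with a log2 ratio of highest over lowest of 1.23 (0.75 to 1.73). Selenbp2 ran the opposite way, at 1359.8, 1330.0 and 950.3 CPM (-0.52, -0.61 to -0.43). At 48 h the direction was the same for Selenbp2, at 1366, 1301 and 685 CPM (2-fold, log2 interval -1.11 to -0.89), and for Cyp4a12b (1.48, 0.89 to 2.09), Cyp4a12a (1.21, 0.75 to 1.68) and Socs2 (0.95, 0.19 to 1.70). Elovl3 at 48 h had 18 UMIs in the highest part and 4 in the lowest. The intervals of Stat5a, Stat5b and Bcl6 included 0 at both times. The median non-mt depth at 48 h was 7037, 4435 and 3495 UMIs in the 3 parts, against 1212, 1307 and 1206 at 0 h, and its part in the 48 h ratios was not tested.

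**Figure D5:**
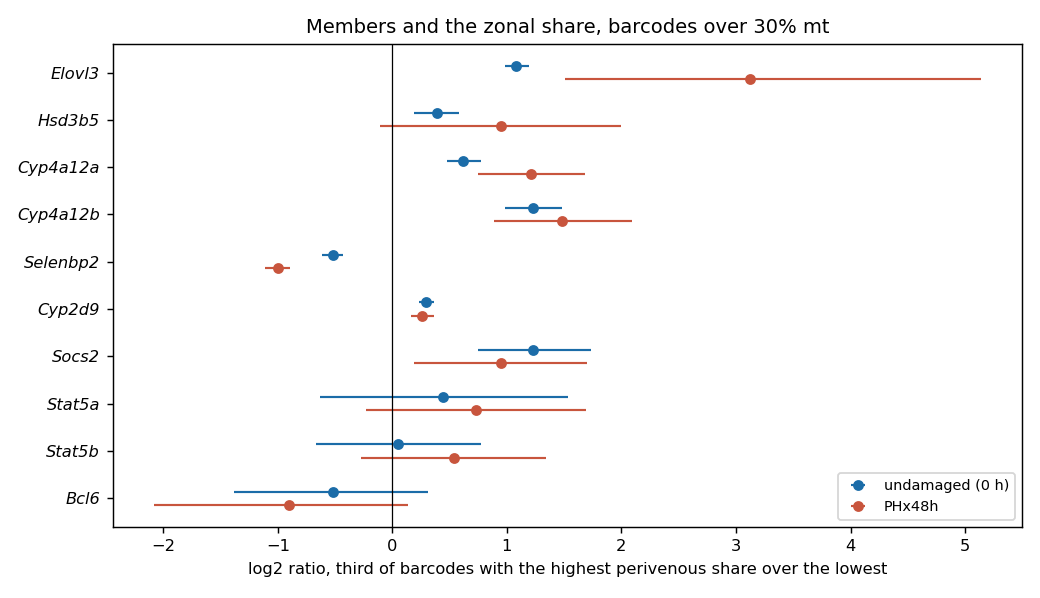
Log2 ratio of each gene between the barcodes with the highest and those with the lowest perivenous share, of 3 nearly equal parts over 30% mt, for the undamaged (blue) and PHx48h (red) libraries, with 95% counting intervals. Selenbp2 lies left of 0 in both, and Elovl3, Cyp4a12a, Cyp4a12b, Cyp2d9 and Socs2 lie right of it.

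Of the 765 PHx48h barcodes over 30% mt, 416 had at least 3 UMIs of the proliferation markers and 96 had none. Selenbp2 was at 1103 CPM in the former and 1611 CPM in the latter, a log2 ratio of -0.55 (-0.68 to -0.41). Cyp2d9 was at 904 and 1011 CPM (-0.16, -0.33 to 0.01), and for each of the other 8 genes the interval included 0. The groups differed in median non-mt depth (6942 and 2626 UMIs) and in median mt share (53% and 65.2%), and the part of either was not tested.

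Further genes of the axis were taken from lists of known pathway members and sex-biased liver genes. Of 14 growth hormone signalling genes, 13 were compared: over 30% mt 5 were at least 2-fold lower, 2 at least 2-fold higher and 6 within 2-fold, with a median log2 ratio of -0.64 beside 0.56 for all genes. Of all genes 5.59% were lower and 31.9% higher by that measure. Ghr, the receptor, was at 526 and 212 CPM (-1.31, -1.41 to -1.21) over 30% mt and at 604 and 164 CPM (-1.88) under 2% mt. Jak2, its kinase, was at 3.63 and 6.27 CPM (0.79, -0.05 to 1.65) over 30% mt. Under 2% mt Jak2 was at 4.18 and 2.55 CPM (-0.71, -1.94 to 0.28). Cish, the feedback gene with the 2 letter matches above, was at 39.1 and 10.2 CPM (-1.94, -2.40 to -1.50) over 30% mt. Its levels under 2% mt were 22.6 and 7.33 CPM (-1.62). Igf1, the circulating growth factor that growth hormone induces, was at 1296 and 728 CPM (-0.83) over 30% mt and at 1370.4 and 1153 CPM (-0.25) under 2% mt. The lowest ratios over 30% mt belonged to the adaptor Grb10, at 40 UMIs and 1 UMI (-5.14, -10.48 to -2.58), and the transcription factor Onecut1 (40.1 and 9.8 CPM, -2.04). The highest there belonged to the phosphatases Ptpn1 (7.61 and 21.6 CPM, 1.50) and Ptpn11 (18.3 and 41.1 CPM, 1.17). Grb10, among the 5 lower, passed the filter on low values only through its 0 h level of 6.92 CPM. Its log2 ratio under 2% mt was -1.04 (-2.68 to 0.20). Under 2% mt the counts were 6 lower, 1 higher and 6 within 2-fold, with 19.9% of all genes lower and 24.5% higher.

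Of 11 further genes listed as male-biased, 7 were at least 2-fold lower over 30% mt and 1 was at least 2-fold higher, against 5.59% and 31.9% of all genes, with a median of -1.44 beside 0.56. Under 2% mt 9 were lower and 1 was higher, against 19.9% and 24.5%, with a median of -1.67 beside 0.07. The lowest were the glucuronosyltransferase Ugt2b38 (115 and 9.6 CPM, -3.59) and the organic anion transporter Slco1a1 (482 and 56.2 CPM, -3.10). Keg1 was at 126 and 91.9 CPM (-0.45). Gstp1, a glutathione transferase with a near-identical neighbour that could share its reads, was at 8.48 and 947 CPM, a log2 ratio of 6.80 (6.40 to 7.24) against the direction of the rest.

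Of 19 genes listed as female-biased, 13 were at 0 in the undamaged barcodes over 30% mt and 5 at 0 in those of PHx48h, and the list summed to 112 and 168 UMIs. Of the genes seen at 48 h, 7 held only 1 to 3 UMIs, as did 2 at 0 h. Under 2% mt 4 were at 0 at 0 h and 9 at 48 h, with 2511 and 56 UMIs from pools of unlike size. The share of all genes at 0 was not computed, so no gain or loss is read from these zeros. Over 30% mt only 4 could be compared. Cyp2a4 and Acot3 passed the filter on low values only through their 48 h levels, and Cyp2c69 only through its 0 h level. The direction of each of those followed from the filter and is not read as a result. Cyp2a4, a steroid hydroxylase, had 1 UMI at 0 h and 56 UMIs at 48 h (log2 5.99, 3.45 to 11.32), and the near-identical Cyp2a5 could share its reads. Acot3, an acyl-CoA thioesterase, had 0 UMIs and 34 UMIs, which was at least 12.8-fold higher against a limit of 3 counts over the set. Cyp17a1 was at 3.46 and 6.27 CPM (0.86, 0.01 to 1.74), and Cyp2c69 was at 13.2 and 1.57 CPM (-3.07, -4.33 to -2.02).

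Among 3024 genes outside the set, those nearest to the mean profile of the 6 targets over the 4 sets of barcodes, by Euclidean distance of centred log2(CPM + 5), were Cyp7b1 (0.292), Dio1 (0.429), Ugt2b1 (0.48), Slco1b2 (0.665) and Ugt2b38 (0.672). The targets themselves lay at 0.638 (Cyp4a12a), 0.634 (Cyp4a12b), 1 (Hsd3b5), 1.61 (Cyp2d9), 2.43 (Selenbp2) and 2.81 (Elovl3), so the mean profile stands close to only the Cyp4a12 pair. Cyp7b1, an oxysterol hydroxylase, was at 1646 and 293 CPM over 30% mt and at 1852 and 209 CPM under 2% mt. Dio1, which activates thyroid hormone, was at 299 and 39.2 CPM over 30% mt and at 209 and 26.5 CPM under 2% mt.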

How the data were processed

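Droplet scRNA-Seq (10x Genomics, version 2 chemistry) of collagenase-isolated hepatocytes was available as 1 undamaged and 1 PHx48h library, grouped by the time point in their labels. The authors deposited raw UMI counts per gene and barcode, without normalization. Per the submitters' processing notes they were made with Cell Ranger on mm10, whose version is not given in the sources used here. The libraries held 96118593 and 18198719 UMIs. The study's methods name a filter on mitochondrial content without its threshold, and no such filter was applied here. Doublets were not called, so barcodes of high depth may hold more than 1 cell.

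The 13 mitochondrial genes were left out of every denominator. Counts were summed over the barcodes of a set and scaled to CPM. Ratios had conditional binomial intervals, levels exact Poisson intervals and shares Clopper-Pearson intervals, at 95% and for counting error only. With 1 library per group no p-value was computed. Python 3.11.15, numpy 2.4.6, scipy 1.17.1 and pandas 2.3.3 were used, with edgeR 4.0.16 for TMM factors. Scripts were tested on simulated data. Gene positions came from GENCODE M21 (GRCm38) and start windows from RefSeq.

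The 10 genes and the lists were chosen with earlier results of these data known. All 10 were named, with Ghr, Jak2, Cish, Igf1, the 2 lowest and 2 highest genes of each list over 30% mt, and the 5 genes nearest to the targets. Alternatives covered the scaling, the mt limits, the filter on low values, the thinning depth and barcodes left out. Leaving out barcode sequences found in both libraries was added after seeing the data.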

Additional observations from a re-analysis of the deposited data

How the results depend on the processing

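Of 395 alternative values, 273 stayed within counting error of the reported one or, for a count, within 1.5 times of it, 121 moved by more, and the direction of 1 ratio reversed. Of those 121, 71 were shares of barcodes with a UMI at another thinning depth, which change with depth. A further 15 were squared coefficients of variation. Of 23 recomputed, 14 squared coefficients of variation fell below 0 without the 1% of barcodes with the most UMIs of the gene, which lowers them by construction. The number of genes at least 2-fold lower stayed at 6 over 30% mt under all alternatives and ran from 7 to 9 under 2% mt, beside 8. The summed targets over 30% mt, -1.21 as reported, were -1.45 without the 20 most abundant genes in the scaling, -1.77 with TMM scaling, -1.28 in barcodes over 20% mt and -1.12 over 50% mt. Under 2% mt, -2.19 as reported, they were -2.38 without the 20 most abundant genes, -2.34 with TMM scaling and -2.29 under 5% mt. Under 5% mt Stat5b was -0.98 and Bcl6 -2.16, beside -1.45 and -4.49. Stat5a over 30% mt, 0.61 as reported, was -0.26 in barcodes over 50% mt, and the cause was not tested. With TMM scaling, genes at least 2-fold lower over 30% mt were 14.3% of all genes and those higher 15.5%, and without the 20 most abundant genes 8.24% and 24%. The median of all genes then moved from 0.56 to 0.00 and 0.33, with Selenbp2 at -0.61 and -0.29 and Stat5b at -0.60 and -0.28. Under 2% mt, TMM scaling put 23.4% lower and 21% higher. Without barcode sequences found in both libraries, the summed targets were -1.20 and -2.21. No paired analysis was possible because each group had 1 library. With 1 library per group, the spread between mice was not measured. At these depths the per-cell shares of Socs2, Stat5a, Stat5b and Bcl6 were too low to compare.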
